A study of Mus musculus with 12 samples.

Results

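The integrated stress response was read from 10 genes of LSK cells, the lineage-negative, Sca-1-positive, KIT-positive fraction of bone marrow that holds the hematopoietic stem and progenitor cells. The genes were taken by name from the 35999 genes of the table, and all 10 were found. They are the eIF2-alpha kinases Eif2ak1, Eif2ak3 and Eif2ak4, the phosphatase adaptor Ppp1r15a, the transcription factors Atf4 and Ddit3, the mTORC1 inhibitor Ddit4, and the amino acid synthesis enzymes Asns, Psat1 and Phgdh. RNA of sorted LSK cells was sequenced from 6 mice with the genotype label WT and 6 with the label Fancg KO, each mouse giving 1 library, and the labels name no treatment. The KO mice carry a germline loss of Fancg, a member of the Fanconi anemia core complex that handles DNA interstrand crosslinks, so every cell type of the animal carries the loss and not LSK cells alone. Strain, age and the part of Fancg that was removed are not given in the sources used here.

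The response works through a single step of translation. Each kinase senses its own stress (HRI, the product of Eif2ak1, heme shortage and mitochondrial stress, PERK, the product of Eif2ak3, unfolded protein in the endoplasmic reticulum, and GCN2, the product of Eif2ak4, amino acid shortage) and phosphorylates the translation factor eIF2 on its alpha subunit. General protein synthesis then slows while the ATF4 protein is made in larger amounts from mRNA already present, and ATF4 with its partners raises the transcription of enzymes, transporters and tRNA synthetases that restore amino acid supply. GADD34, the product of Ppp1r15a, closes the loop by bringing the phosphatase back to eIF2. The kinases and ATF4 are thus controlled largely beyond the mRNA, whereas the targets of ATF4 are read at the mRNA itself. In blood stem cells the response has been tied to survival under amino acid shortage and unfolded protein stress.

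Values are the normalized signal of the deposited table, an estimated read count divided by a factor for the library. A library held 1576080 to 2672920 in total signal. The commonest low value, taken as the worth of 1 read, gave an approximate depth of 1235110 to 2471410 reads, so that Ddit4 rested on 3 to 17 reads per library and Atf4 on 66.4 to 199. Kit, the receptor that defines the gate, was high in all libraries (283 to 435), whereas Ly6a, the gene for Sca-1, was low (4.84 to 17.4). On the granulocyte and monocyte list, 6 of 12 genes had a mean signal of 10 or more, among them Mpo (255 to 1650), Elane (6.02 to 270) and Lyz2 (56.5 to 111), and the other 6 averaged under 1, with Ly6g at 0 in all 12 libraries. Ebf1 of the B cell list reached 288 and Nkg7 of the T and NK cell list 75.0, while Cd3e did not exceed 0.348. The summed lists of 7 cell types and of the gate gave exact permutation p values of 0.147 to 0.926 between the labels (two-sided, 6 against 6 libraries), the stroma and endothelium list being summed without Pecam1, which alone held 17812 to 76164. Itga2b of the megakaryocyte and platelet list ran from 11.8 to 19.2 in libraries labelled WT and from 19.2 to 45.4 in those labelled KO, and its part in the results was not tested. The targeted gene did not separate the labels, since Fancg had a signal of 4.76 to 24.1 in libraries labelled WT and 4.46 to 14.5 in libraries labelled KO (exact permutation p = 0.636, two-sided, 6 against 6). WT replicate 3 and KO replicate 7 were low in 4 Y-linked genes summed (26.6 and 49.7, against 189 to 435 in the other libraries). The pseudogene Gm18853 was at 19.2 in WT replicate 3 and near 0 in KO replicate 3 (1.84e-05), while the other WT-labelled libraries did not exceed 0.0304 and the other KO-labelled libraries had 15.1 to 70.9. Directions are therefore those between labels, KO and WT below stand for the labels, and the results were recomputed without these libraries.

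Within a short window around the start, only 1 of the 10 promoters held the core of an element that ATF4 and C/EBP factors bind. Through this element they act on amino acid response genes. The core searched was TGATGNAA on either strand, which reads TTNCATCA when it lies on the strand opposite to the gene, in windows from 250 bases before to 50 bases after the RefSeq start (GRCm38.p6). All 10 genes had a window, and sites outside it or with other letters were not searched. The member with a match was Asns, asparagine synthetase, with the core 23 bases before the start, and the stretch is shown with the core in capitals beside those of other genes of the response that hold it and are described further on.

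Asns, chr6:7693217-7693240, minus strand: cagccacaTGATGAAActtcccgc
Iars, chr13:49682129-49682152, plus strand: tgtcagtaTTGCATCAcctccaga
Vldlr, chr19:27216812-27216835, plus strand: agcaatagTTGCATCAgcgctcct
Aars, chr8:111033722-111033745, plus strand: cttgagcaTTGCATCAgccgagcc
Atf3, chr1:191183428-191183451, minus strand: tctcgcacTTGCATCAccaagtcc
Slc7a11, chr3:50443664-50443687, minus strand: catgtggcTGATGCAAacctggag

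Each stretch is written along the strand of its gene. Across all genes with a window, 4.51% held the core (1219 of 27025), against 18 of 70 other genes on the lists (25.7%). Known targets of ATF4 were put on these lists, so a higher share was in part built into their choice and is description only. The share was 5 of 9 for tRNA synthetases and tRNA export and 5 of 11 for stress effectors. It was 0 of 14 for the genes of the IRE1 and ATF6 branches of the unfolded protein response, which run beside the integrated stress response. Slc7a11, the cystine importer, and Aars, alanyl-tRNA synthetase, each held the core at 2 places, of which 1 is printed. These matches are letters in a window and say nothing of binding in these cells.

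Atf4 was the most abundant of the 10 transcripts per length. Its signal per kb of its longest transcript was 56.6 on average over 12 libraries, with 53.4 ± 13.5 (SD, n = 6) in WT and 59.8 ± 16.2 (SD, n = 6) in KO. Ppp1r15a followed with 27.6 per kb, then Phgdh with 20.7 and Eif2ak4 with 18.8. Ddit3 had 12.1, Psat1 8.18, Ddit4 6.89 and Eif2ak1 6.34 per kb. Asns (2.25 per kb) and Eif2ak3 (1.73 per kb) stood at the bottom. Every neighbouring pair in this order had overlapping ranges over the 12 libraries, so the order holds between distant genes only. With the mean length over transcripts in place of the longest, Phgdh moved above Ppp1r15a (43.3 and 42.0 per kb) and Eif2ak1 above Ddit4 (12.3 and 6.89 per kb).

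**Figure D1:**
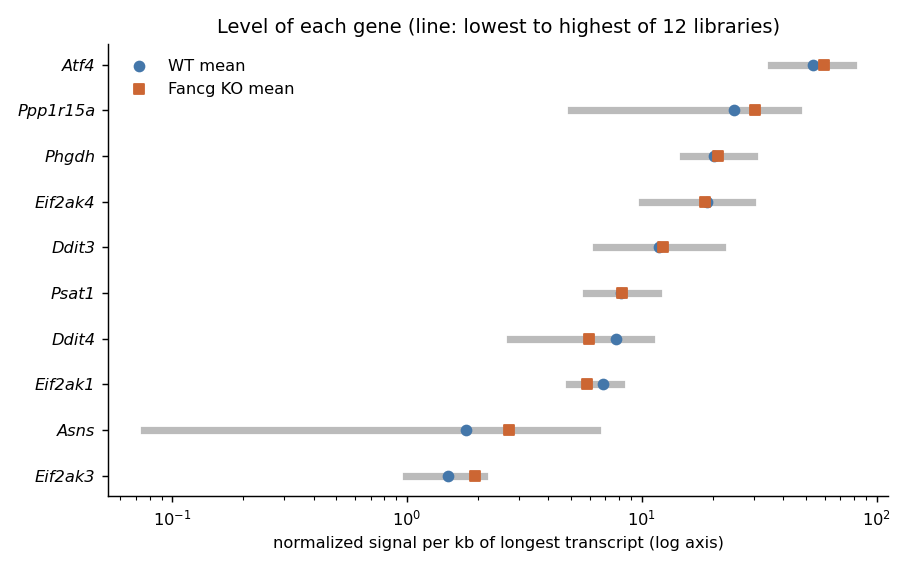
Normalized signal per kb of the longest transcript (log axis) for each of the 10 genes, with the mean of the 6 WT and of the 6 Fancg KO libraries as points and a line from the lowest to the highest of 12 libraries. Atf4 lies highest, and Ppp1r15a and Asns have broad lines while that of Eif2ak1 is short.

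None of the 10 genes separated the labels. The 8 genes with a mean signal of 10 or more were tested with limma on log2(signal + 1) together with all 8887 genes that passed. Of these 8 genes, 0 had an unadjusted p under 0.05, with 4 higher and 4 lower in KO, against 3.67% of all genes tested (1.98% higher and 1.69% lower). After Benjamini-Hochberg adjustment over all genes tested, limma called 0 members and 0 genes in all (0%), while 326 genes had an unadjusted p under 0.05. The median difference was 0.01 on the log2 scale for the 8 members and 0.00 for all genes tested. The 6 values of one label overlapped those of the other for all 10 genes, and groups without overlap were found for 0.09% of all genes tested. All 8 genes had a limma adjusted p of 0.9996, and the count under 0.05 stayed at 0 without the libraries that stood apart. With 1 library per mouse, these p-values measure the spread between the mice sequenced, including any part that goes with the replicate number. In sorted bulk RNA, fewer cells expressing a gene cannot be told apart from less RNA per cell.

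**Figure D2:**
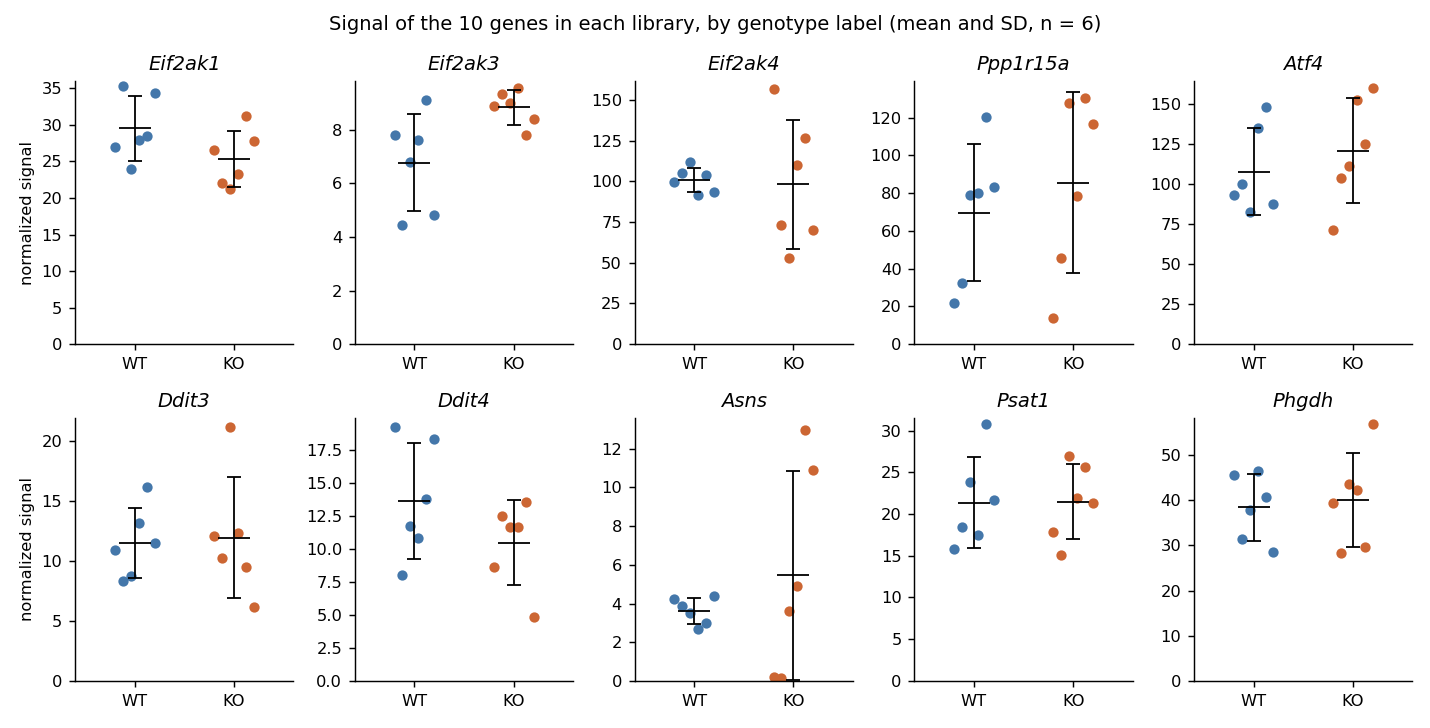
Normalized signal of each of the 10 genes in 12 libraries, by genotype label, with points for libraries and a bar for the mean and SD (n = 6). The values of the labels overlap in all 10 panels, and the KO points of Eif2ak4 and Asns lie farther apart than the WT points.

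**Figure D3:**
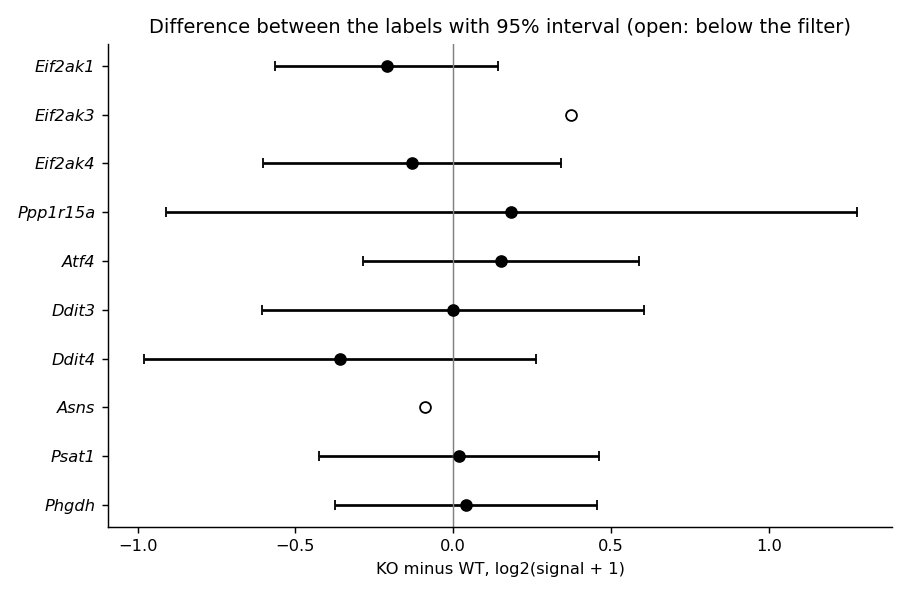
Difference between KO and WT in log2(signal + 1), with 95% intervals from limma for the 8 genes past the filter and open points without interval for Eif2ak3 and Asns. All 8 intervals cross 0, the widest being that of Ppp1r15a from -0.91 to 1.28.

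Among the kinases, Eif2ak3 gave the smallest p of the 10 genes and Eif2ak4 the most unequal spread of the 8 tested. Eif2ak3 (chromosome 6, 70844515 to 70905245, plus strand) encodes PERK, the sensor in the endoplasmic reticulum membrane. Its signal ran from 4.46 to 9.11 with a median of 7.20 in WT and from 7.80 to 9.56 with a median of 8.94 in KO. The KO libraries lay in the upper part of the WT range or above it. The difference was 0.37 on the log2 scale (exact permutation test over 924 divisions, two-sided, p = 0.0238, not adjusted for the 10 genes). The gene fell below the filter at a mean signal of 7.80, between 3.87 and 11.5 reads per library, and limma with no filter gave a p of 0.130 (adjusted p = 0.889), beside the exact test. With single libraries left out, the exact permutation p ran from 0.00433 without WT replicate 6 to 0.0606 without KO replicate 5. The next highest were 0.0584 without KO replicate 3 and 0.0498 without KO replicate 4. With all libraries kept, this p was 0.0238 at a pseudocount of 0.5 or 5 and 0.0173 after median-of-ratios rescaling. It rose to 0.0635 without the pair of libraries low in Y-linked genes and to 0.0873 without both libraries numbered 3. It reached 0.143 without the 4 libraries numbered 2 and 3 (difference 0.29). Of the sequence of Eif2ak3, 6.78% of 31-base stretches also occur in other transcripts, nearly all on the opposite strand (Gm43292), and the use of strand in the quantification is not given in the sources used here.

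Eif2ak1 (chromosome 5, 143817788 to 143904251, plus strand), the gene of the heme-regulated kinase, had 29.5 ± 4.42 (SD, n = 6) in WT and 25.4 ± 3.86 (SD, n = 6) in KO. The difference was -0.21 on the log2 scale, with a 95% interval of -0.56 to 0.14 (limma p = 0.224, exact permutation p = 0.115). Its exons overlap Aimp2 and Ankrd61 on the other strand, which accounts for most of the 10.3% of its 31-base stretches found elsewhere.

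Eif2ak4 (chromosome 2, 118388618 to 118475234, plus strand) encodes GCN2, which reads uncharged tRNA. Its mean signal was close between the labels, 100.7 ± 7.55 (SD, n = 6) in WT and 98.2 ± 39.4 (SD, n = 6) in KO, but the libraries were spread differently. WT ran from 91.6 to 112 with a median of 101.4, whereas KO ran from 53.1 to 156 with a median of 91.5, so that 3 KO libraries lay below the whole WT range, 2 above it and 1 inside. The SD of the log2 values was 0.11 in WT and 0.59 in KO, a ratio of 5.48. A ratio at least as large was seen in 26 of 8887 genes tested (0.293%), where the median ratio was 1.13, and 60.1% of genes had the larger SD in KO. No 31-base stretch of Eif2ak4 is shared with another gene, and 43.6 to 152 reads per library lay behind these values.

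Eif2ak2, the fourth kinase of the family, which is activated by double-stranded RNA, was not among the 10 genes and had 14.4 ± 1.89 (SD, n = 6) in WT and 16.1 ± 3.11 (SD, n = 6) in KO, a difference of 0.13 with a 95% interval of -0.29 to 0.56.

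Ppp1r15a differed more between library numbers than between labels. The gene (chromosome 7, 45522916 to 45526268, minus strand) encodes GADD34, an early stress transcript of short life. In WT its signal was 21.9 in library 2, 32.5 in library 3, and then 79.2, 80.3, 120 and 83.5 in libraries 4 to 7. In KO it was 14.0 in library 2, 45.5 in library 3, and 128, 78.5, 130 and 117 in libraries 4 to 7. All 4 libraries numbered 2 and 3 therefore lay below all 8 others, whichever their genotype. This pattern, chosen here after the values were seen, was shared by 199 of 8887 genes tested (2.24%), while 128 genes (1.44%) had the opposite one, and Ppp1r15a was the only one of the 8 members tested to show it. The labels give the numbers no meaning, so whether they stand for a day of sorting or a preparation was not tested. Between the labels the difference was 0.18 with a 95% interval of -0.91 to 1.28 on the log2 scale (exact permutation p = 0.790), and it was 0.31 without the 4 libraries numbered 2 and 3. With the library number as a block, the limma p was 0.322, against 0.725 without the block. KO was higher than WT in 4 of 6 numbers.

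**Figure D4:**
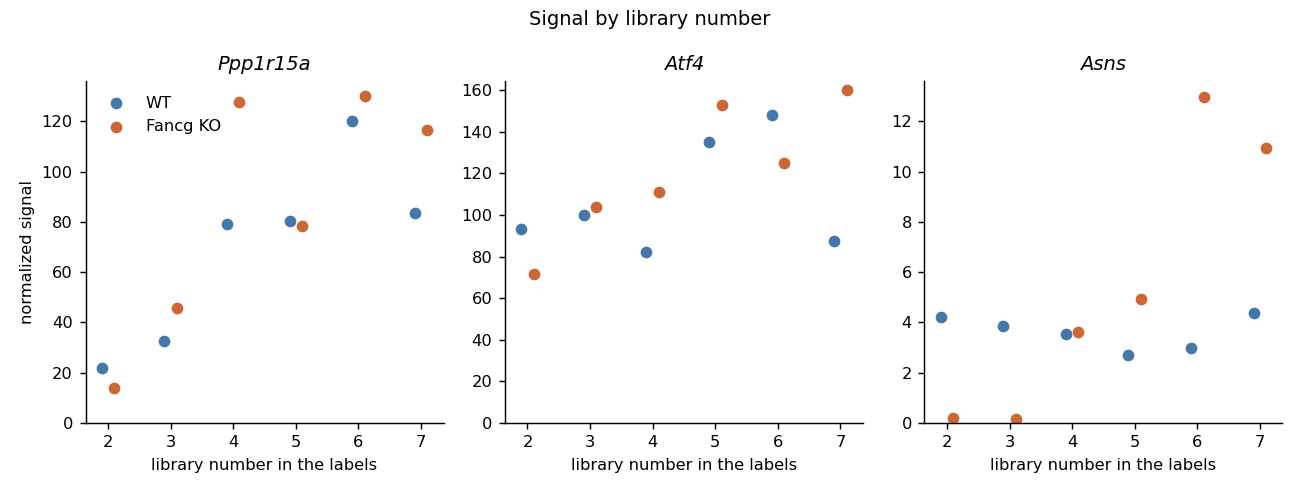
Normalized signal of Ppp1r15a, Atf4 and Asns against the library number of the labels, with WT and Fancg KO as separate points. Ppp1r15a is below 46 in all libraries numbered 2 and 3 and above 78 in the rest, and Asns is near 0 in KO libraries 2 and 3 only.

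Atf4 and Ddit3, the transcription factors of the response, showed no difference beyond the spread between mice. Atf4 (chromosome 15, 80255184 to 80257541, plus strand) ran from 82.4 to 148 with a median of 96.6 in WT and from 71.7 to 160 with a median of 118 in KO. The ranges overlapped almost fully, and the difference was 0.15 with a 95% interval of -0.29 to 0.59 (limma p = 0.475, exact permutation p = 0.502). Ddit3 (chromosome 10, 127290774 to 127296288, plus strand) encodes CHOP, which is tied to cell death under prolonged stress. Its signal ran from 8.31 to 16.2 with a median of 11.2 in WT and from 6.21 to 21.2 with a median of 11.2 in KO, and the difference was -0.00065 with a 95% interval of -0.61 to 0.60. The highest and the lowest of the 12 values of Ddit3 were both in KO libraries, and 3.87 to 27.2 reads per library lay behind its values. Of its 31-base stretches, 2.4% are shared with other genes, mostly on the opposite strand, where Mars is among them, and the annotation holds a second gene named Ddit3 inside the first, which was pooled with it here.

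Ddit4 (chromosome 10, 59949669 to 59951834, minus strand) encodes REDD1, which restrains mTORC1 and is also induced by hypoxia and glucocorticoids. Its signal ran from 8.07 to 19.3 with a median of 12.8 in WT and from 4.82 to 13.6 with a median of 11.7 in KO. The 2 highest values, 19.3 and 18.4, were both in WT and the lowest, from 3 reads, was in KO. The difference was -0.36 with a 95% interval of -0.98 to 0.26 (limma p = 0.238, exact permutation p = 0.229), the largest difference in size among the 8 members tested, and it kept its sign in all 12 fits that left out a library (-0.49 to -0.17).

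Of the enzymes of amino acid synthesis, Asns was spread widely among KO libraries and Psat1 and Phgdh were not. Asns (chromosome 6, 7675169 to 7693254, minus strand), the classic ATF4 target with the core shown above, was below the filter at a mean signal of 4.54. In WT its values were 4.22, 3.87, 3.53, 2.68, 2.97 and 4.38 in libraries 2 to 7. In KO they were 0.196, 0.152, 3.61, 4.92, 13.0 and 10.9, so libraries 2 and 3 were under the worth of 1 read (0.182 reads each) while libraries 5, 6 and 7 exceeded every WT value. The SD was 0.681 in WT and 5.40 in KO. The difference between the labels was -0.09 on the log2 scale with a pseudocount of 1 (exact permutation p = 0.829, two-sided, 6 against 6), it turned to 0.12 with a pseudocount of 5, to 0.31 without both libraries numbered 3, and to 0.92 without the 4 libraries numbered 2 and 3 (exact permutation p = 0.0571, 4 against 4). Between 0.182 and 11.4 reads per library lay behind these values.

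Psat1 and Phgdh, which make serine from a glycolytic intermediate, were level between the labels. Psat1 (chromosome 19, 15904678 to 15947337, minus strand) had 21.3 ± 5.46 (SD, n = 6) in WT and 21.5 ± 4.50 (SD, n = 6) in KO, a difference of 0.02 with a 95% interval of -0.43 to 0.46. Phgdh (chromosome 3, 98313170 to 98339990, minus strand) had 38.4 ± 7.35 (SD, n = 6) in WT and 40.0 ± 10.5 (SD, n = 6) in KO, a difference of 0.04 with a 95% interval of -0.37 to 0.45. Phgdh is uncertain, since 55.8% of its 31-base stretches also occur in processed copies such as Gm7901 and Gm9347, and 17 such copies in the table held 0 to 24.0 of signal per library in sum. With the copies added, the signal was 43.6 ± 9.21 (SD, n = 6) in WT and 47.2 ± 15.4 (SD, n = 6) in KO, a difference of 0.08 (exact permutation p = 0.740).

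The 8 genes past the filter were compared for likeness from mouse to mouse. After each label was centred on its mean, the 28 pairs of the 8 tested genes had a median Pearson r of 0.04 over 12 libraries that share library and depth, with 17 pairs above 0. The highest were Psat1 with Ppp1r15a (r = 0.74), Atf4 with Ppp1r15a (r = 0.66) and Ddit3 with Ddit4 (r = 0.50). Library numbers were not centred, and their part in these r values was not tested. Psat1 had 15.1 to 18.4 in the libraries numbered 2 and 3 and 17.5 to 30.8 in the others. The lowest was Eif2ak4 with Ppp1r15a (r = -0.45), and Atf4 had an r of 0.02 with Ddit3 and of 0.36 with Psat1. The 5 genes most like Atf4 among all tested included Cops9 (r = 0.90), Aurka (0.89), Nup133 (0.89) and Ubox5 (0.88), none of which is on the lists of the response. Those most like Ppp1r15a, a search added after its values were seen, were Hist3h2a (0.98), Rpl37 (0.96), Tpt1 (0.96), Hist1h2ac (0.96) and Hist1h2bf (0.96). In Hist3h2a the libraries numbered 2 and 3 did not exceed 113, and the others did not fall below 178.

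The rest of the pathway gave 4 genes with an unadjusted p under 0.05 of 66 tested (6.06%), 3 higher and 1 lower in KO, against the 3.67% over all genes. All 4 had an adjusted p of 0.9996 from limma. Of the 90 other genes listed, 24 fell below the filter, and 38 of the 66 tested were higher in KO and 28 lower, with a median difference of 0.05. Over all 8887 genes tested, 4507 were higher in KO and 4380 lower, which is the background for the counts by list that follow.

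The tRNA synthetases, which charge tRNA with amino acids and include many ATF4 targets, held 2 of the 4 genes. Iars, isoleucyl-tRNA synthetase, ran from 20.2 to 28.0 with a median of 23.3 in WT and from 22.3 to 38.7 with a median of 31.1 in KO. Its difference was 0.42 (SE 0.17, limma p = 0.0267, exact permutation p = 0.0108). Nars, asparaginyl-tRNA synthetase, had 72.9 ± 17.1 (SD, n = 6) in WT and 98.8 ± 22.4 (SD, n = 6) in KO, a difference of 0.43 (SE 0.18, limma p = 0.0283, exact permutation p = 0.0476). In this list, which also holds the tRNA exporter Xpot, 8 of 12 tested genes were higher in KO, with a median of 0.12. The most abundant, Eprs, was at -0.13. As each library was left out in turn, the unadjusted limma p of Iars ran from 0.00724 to 0.0626 and was over 0.05 without WT replicate 6, KO replicate 2 or KO replicate 4. That of Nars ran from 0.00582 to 0.0743 and was over 0.05 without WT replicate 2, 5 or 7 or KO replicate 6. Without the pair of libraries low in Y-linked genes the limma p was 0.0632 for Iars and 0.0680 for Nars. Without both libraries numbered 3 it was 0.0618 for Iars and 0.0173 for Nars. With the library number as a block it was 0.0327 for Iars and 0.00767 for Nars (adjusted p = 0.889 for both). Without the 4 libraries numbered 2 and 3 the difference was 0.34 for Iars and 0.48 for Nars, and the limma p was 0.174 and 0.0438.

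Sel1l, the scaffold of the ubiquitin ligase that clears misfolded protein from the endoplasmic reticulum, was higher in KO by 0.54 (SE 0.23, limma p = 0.0332, exact permutation p = 0.0584), from 33.5 ± 13.9 (SD, n = 6) in WT to 47.4 ± 9.54 (SD, n = 6) in KO. It belongs to the 17 genes of the IRE1 and ATF6 branches, of which 11 were higher and 6 lower with a median of 0.06, and the most abundant of them, the chaperone Calr, was at 0.06 (95% interval -0.48 to 0.60). Vldlr, a lipoprotein receptor induced through PERK and ATF4, was lower in KO by a difference of -0.62 (SE 0.29, limma p = 0.0474, exact permutation p = 0.0844), from 57.8 ± 24.9 (SD, n = 6) in WT to 36.6 ± 14.2 (SD, n = 6) in KO. Both passed p under 0.05 in only 4 of the 12 fits that left out a library. Those were the fits without WT replicate 4, WT replicate 6, KO replicate 4 or KO replicate 7 for Sel1l, and without WT replicate 6, WT replicate 7, KO replicate 2 or KO replicate 5 for Vldlr, and the highest p was 0.0823 for Sel1l and 0.126 for Vldlr. Without both libraries numbered 3 the limma p was 0.138 for Sel1l and 0.151 for Vldlr. With the library number as a block the limma p was 0.0239 for Sel1l and 0.0127 for Vldlr (adjusted p = 0.889 for both). Without the pair of libraries low in Y-linked genes, Vldlr differed by -0.36 and Sel1l by 0.55, and the limma p was 0.225 and 0.0271. Without the 4 libraries numbered 2 and 3, Sel1l differed by 0.25 and Vldlr by -0.59, and the limma p was 0.399 and 0.0714. Iars and Vldlr both hold the core printed above and lay in opposite directions.

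The other lists held no gene with an unadjusted p under 0.05. For eIF2 and its exchange factor, 5 of 8 genes were higher, and the most abundant, Eif2s2, the beta subunit, differed by 0.06 (95% interval -0.32 to 0.44). For the regulators of the kinases with the phosphatase adaptor Ppp1r15b, 6 of 7 tested were lower with a median of -0.11. Ppp1r15b, the constitutive counterpart of Ppp1r15a, was among the lower ones (152 ± 19.7 in WT and 142 ± 19.8 in KO, SD, n = 6). Partner transcription factors had 3 of 3 tested higher with a median of 0.12, the most abundant being Nfe2l2 at 0.03. One-carbon and amino acid enzymes had 3 of 5 higher, with Mthfd1l at 0.03, and amino acid transporters 3 of 6, with Slc38a2, a glutamine carrier, at -0.11 (504 ± 58.5 in WT and 469 ± 58.4 in KO, SD, n = 6). The stress effectors besides Vldlr had 3 of 6 higher in KO.

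**Figure D5:**
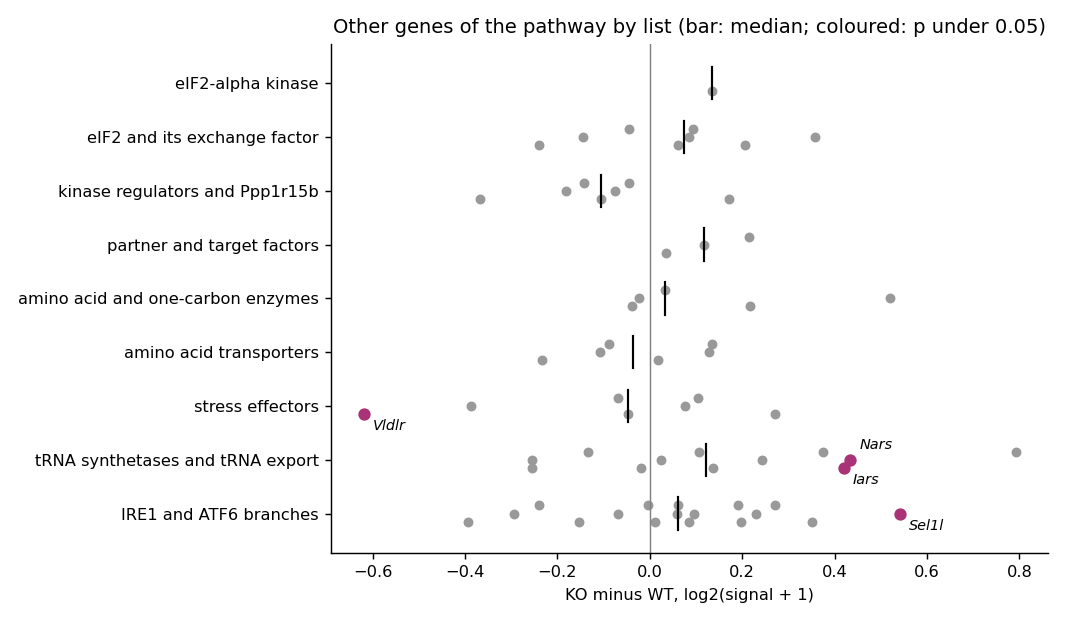
Difference between KO and WT in log2(signal + 1) for 66 other genes of the response by list, with a bar at the median of each list and colour for the 4 genes with an unadjusted p under 0.05. Nars, Iars and Sel1l lie to the right of 0 and Vldlr to the left, and the list medians stay between -0.11 and 0.13.

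Among genes with and without the core in their window the differences covered each other. The 11 tested genes that hold it had a median of 0.09, from -0.62 for Vldlr to 0.79 for Aars, with 7 higher in KO. The 48 without it had a median of 0.03, from -0.39 to 0.54, with 26 higher. Aars, named here because it marks that end, had 9.65 ± 2.46 (SD, n = 6) in WT and 20.6 ± 14.7 (SD, n = 6) in KO (limma p = 0.0533, exact permutation p = 0.0974).

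Several of the best known induced targets were scarce in these LSK cells. Chac1 and Fgf21 were at 0 in all 12 libraries, Trib3 averaged 0.415, and Atf3 ran from 0 to 15.1. Of the 24 listed genes below the filter, 1 had an exact permutation p under 0.05, Sesn2, a leucine sensor of the mTORC1 pathway. Named here after its values were seen, Sesn2 had 7.52 ± 2.77 (SD, n = 6) in WT and 12.03 ± 3.34 (SD, n = 6) in KO (difference 0.66, exact permutation p = 0.0346, not adjusted). The share of all genes below the filter with such a p was not computed, so the count is not read as a result. Sesn2 was also not recomputed with libraries left out or under the other settings.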

How the data were processed

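LSK cells of 12 mice were sequenced (CATS RNA-seq kit, Illumina). The deposited table holds normalized signal, estimated counts that the authors made with kallisto per the labels and divided by library factors. The mouse build, annotation and strand setting are not given in the sources used here. All 12 columns matched a library and 0 were unused. Members, lists and tests were chosen with earlier results of these data known. The 8887 genes whose mean signal reached 10 were fitted with limma 3.58.1 in R 4.3.3 on log2(signal + 1), with genotype alone, an intensity trend and Benjamini-Hochberg adjustment, because a table of non-count values does not permit a count model. A fold on this scale understates low genes. Exact two-sided permutation tests over 924 divisions (smallest p 0.0022) cover members below the filter. Scripts were tested on simulated data. Named genes are the 10 members, from each list the most abundant gene and those with an unadjusted p under 0.05, the 5 most like Atf4 (1 is not reported here), Fancg, Kit and Ly6a, with exceptions marked. Positions and shared 31-base stretches come from GENCODE M21 (GRCm38), promoters from RefSeq, in which 80 of 100 listed genes were found. Alternatives were other pseudocounts, filters and scalings, no trend, a replicate block and libraries left out.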

Additional observations from a re-analysis of the deposited data

How the results depend on the processing

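Under every setting tried, 0 of the members tested had an unadjusted p under 0.05, and none an adjusted one. Asns, Ddit4 and Eif2ak3 rested on 17 reads or fewer per library and Ddit3 on 3.87 to 27.2. The part of depth in the spread of these genes was not tested. The difference of 9 genes turned in sign under settings that kept all libraries or left out several, and the cause was not tested. With a pseudocount of 5 it was 0.0085 for Ddit3 and 0.12 for Asns. With quantile normalization it was 0.034 for Ddit3 and -0.0091 for Psat1. Without WT replicate 3 and KO replicate 7, the libraries with little Y-linked signal, it was 0.073 for Ddit3, -0.020 for Psat1, -0.12 for Phgdh, -0.14 for Ppp1r15a, -0.17 for Mthfd1l, -0.056 for Eif2s2, -0.093 for Calr and -0.079 for Nfe2l2. Without both libraries numbered 3, a setting chosen after seeing the data, it was 0.31 for Asns and -0.084 for Nfe2l2, and without the 4 libraries numbered 2 and 3, likewise chosen later, 0.92 for Asns. As each library was left out in turn, the difference ranged from -0.28 to 0.024 for Eif2ak4, -0.17 to 0.15 for Ddit3, -0.43 to 0.29 for Asns, -0.058 to 0.13 for Psat1, -0.067 to 0.13 for Phgdh, -0.10 to 0.63 for Ppp1r15a, -0.11 to 0.22 for Mthfd1l, -0.028 to 0.17 for Eif2s2, -0.11 to 0.23 for Calr and -0.028 to 0.13 for Nfe2l2. Other pathway genes with an unadjusted p under 0.05 numbered 1 where the mean signal had to reach 50 (24 genes tested), 1 without the pair with little Y-linked signal, 2 without both libraries numbered 3 and 2 without the 4 numbered 2 and 3, and 1 to 4 as single libraries were left out, with 1 without WT replicate 2, WT replicate 5 or KO replicate 6 and 2 without WT replicate 3, WT replicate 7 or KO replicate 4. Over all genes the number was 836 with no filter (21536 genes tested) and 91 with a mean signal of 50 or more (3119 genes tested), as the number of genes tested changes, and 275 to 383 as single libraries were left out. Same-numbered libraries deviated together with an r over 0.1 in 4 of 6 numbers (mean 0.20, against -0.04 for other numbers), and 9 of 12 libraries correlated best with their own number. In every number this r (0.086 to 0.36) was above the mean r with other numbers (-0.082 to -0.019), though 2 of 6 had an r of 0.1 or less. The labels give the numbers no meaning, so they were not taken to pair the mice. The main tests therefore leave out any such pairing, and the correlations are a hint from the data only. With the replicate block, 0 members, 4 pathway genes and 476 genes in all had an unadjusted p under 0.05. The level per kb rose with the mean transcript length for 9 genes, with the order given above.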
